A study of Homo sapiens with 3 samples.

Results

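The genes described here are 37 members of homologous recombination and the Fanconi anaemia pathway, chosen by name from those lists, and all 37 were found among the 22824 genes of the count files. They were measured by RNA sequencing in a human breast cancer line without hormone receptors, MDA-MB-231, which the labels give as R280K, a missense mutant of p53. All 3 libraries belong to 1 group (n = 3, labelled as biological replicates): cells that received 50 nM control siRNA in 2 transfections 24 h apart and were harvested 48 h after the second. The study's p53 siRNA arm is not analysed here, so every value describes the control state of 1 transfected line. The only difference that could be tested was that between the libraries of replicate cultures. Nothing in the labels says whether the cultures were grown at separate times.

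Homologous recombination repairs a broken chromosome by copying the intact sister, mainly in S and G2 phase. The ends are recognised and cut back to single strands, the single strands are coated by RPA, and BRCA2 with its partners then helps to replace RPA so that the strand can search for the matching sequence. The Fanconi pathway clears crosslinks between the DNA strands: a core ubiquitin ligase complex marks the FANCD2 and FANCI pair, and the resulting break is handed to recombination. Inherited loss of several of these genes predisposes to breast and ovarian cancer or causes Fanconi anaemia.

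The deposited values are raw counts per transcript record, and the gene counts summed to 68664126, 84880547 and 54512366 in replicates 1, 2 and 3. A gene's count was that of its record with the largest total. Levels are given in TPM, in which counts are corrected for length and for depth, as mean ± SD over the 3 libraries. A gene was taken as detected at 1 CPM or more in each library, CPM being the count corrected for depth alone. Of the markers fixed for the line, 5 of 5 that should be high were detected and 0 of 3 that should be low (ESR1, PGR and CDH1). Of 9 markers of leukocytes, endothelium and fibroblasts, 1 was detected (PECAM1), and DCN had no counts.

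All 37 genes were detected, and with the lengths used here they sat in the middle of the detected genes. Their median was 23.5 TPM against 23.2 TPM over 12570 detected genes, and 20 of 37 lay above that median. The difference in median log2(TPM + 1) was 0.01 ± 0.08, and it was 0.81 with the median length of each gene's transcripts, 0.30 in CPM without length correction and 0.69 against genes with any count in each library. Levels spanned from RPA1 at 152 TPM, at percentile 90.4 of the detected genes, to FANCF at 3.90 TPM, at percentile 13.4. The order was fine-grained: of 36 pairs of neighbours in it, 20 had ranges over the libraries that overlapped. For a single gene the SD was between 1.12% (EXO1) and 10.9% (FANCF) of the mean, with a median of 6.08%.

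**Figure D1:**
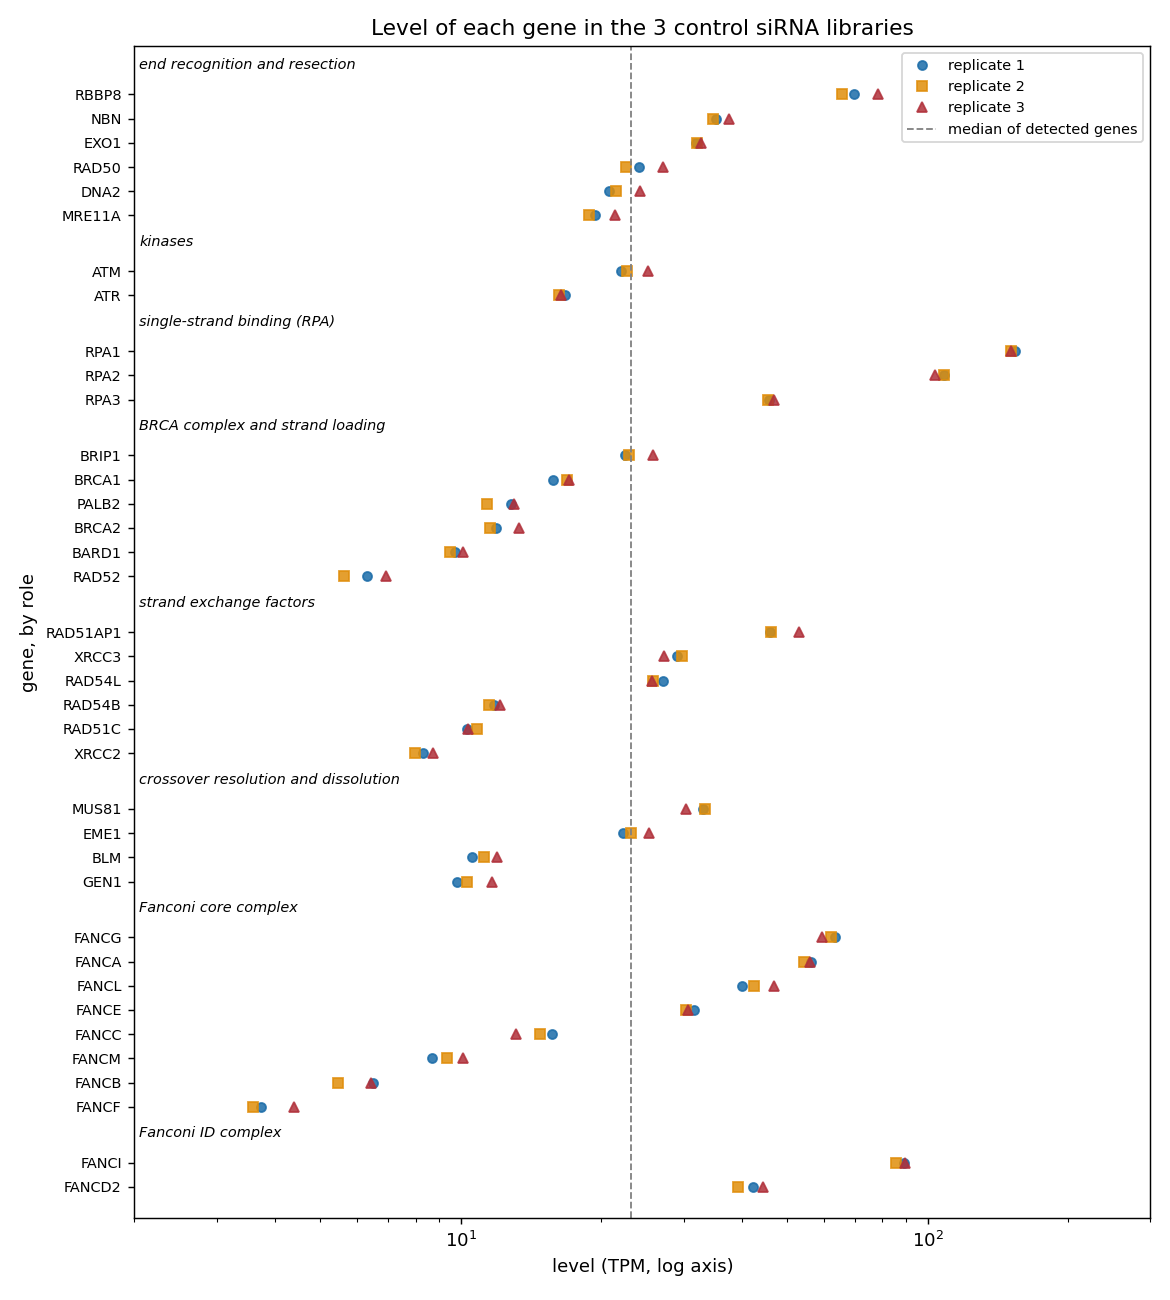
Level of each gene in TPM (log axis), with 1 point per library and genes grouped by role; the dashed line marks the median of the detected genes. RPA1, RPA2 and FANCI lie farthest to the right and FANCF farthest to the left, and the 3 libraries of a gene lie close together compared with the spread between genes.

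The promoters of these genes are of interest because many genes of S phase are under E2F transcription factors. RefSeq promoter sequences (GRCh38.p14, 250 bases before to 50 after the start of the gene) were matched for 31 of the 37. For 27 of these 31, bases just after the start were found in a GENCODE 29 transcript of the gene. The other starts were not checked further. The reads were counted on hg19, and no coordinate was converted. The letters TTTGGCGC, TTTCGCGC, TTTCCCGC or TTTGCCGC, which are forms of the E2F motif, were searched on both strands. They occurred in 6 of the 31 promoters (19.4%), against 3.33% of all 27305 promoters and 5.52% of the 10238 promoters of detected genes. The 7 matches are given in windows of 30 bases, read along the strand of the gene, with the match in capitals.
EXO1 (chr1:241848197-241848226, plus strand): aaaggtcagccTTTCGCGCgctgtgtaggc
FANCA (chr16:89816801-89816830, minus strand): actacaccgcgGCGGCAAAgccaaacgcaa
FANCC, far match (chr9:95317863-95317892, minus strand): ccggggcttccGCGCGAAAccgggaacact
FANCC, near match (chr9:95317737-95317766, minus strand): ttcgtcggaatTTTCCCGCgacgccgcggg
FANCD2 (chr3:10026424-10026453, plus strand): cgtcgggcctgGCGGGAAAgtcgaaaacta
GEN1 (chr2:17753859-17753888, plus strand): cagttgcggggTTTCGCGCcgccggagtct
XRCC2 (chr7:152676102-152676131, minus strand): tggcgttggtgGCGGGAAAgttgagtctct
FANCC alone held 2 matches, and in EXO1, GEN1 and FANCD2 the match lay at or next to the start. The genes with a match did not share a level: they ran from FANCA at 55.4 TPM to XRCC2 at 8.34 TPM. A match describes the letters only, and no match says only that these letters are absent from the window.

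The CCAAT box, searched on both strands like the motifs that follow, was in 13 of 31 (41.9%) against 37.3% of the promoters of detected genes. The CHR element TTTGAA, found in many genes of G2 and mitosis, was present in 3 of 31 (9.68%) against 9.81%, and the palindromic NRF1 motif in 0 of 31 against 2.41%. XRCC3 held 5 CCAAT boxes in the 250 bases before its start, in capitals here in both orientations.
XRCC3 (chr14:103715452-103715701, minus strand): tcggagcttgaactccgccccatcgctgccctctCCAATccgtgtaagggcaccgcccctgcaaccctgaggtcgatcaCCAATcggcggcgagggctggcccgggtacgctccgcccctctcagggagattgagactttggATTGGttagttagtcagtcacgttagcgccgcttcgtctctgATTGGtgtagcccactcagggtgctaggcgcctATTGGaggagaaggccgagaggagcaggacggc
FANCC, which alone held 2 E2F matches, is shown over the same stretch with its E2F letters in capitals.
FANCC (chr9:95317710-95317959, minus strand): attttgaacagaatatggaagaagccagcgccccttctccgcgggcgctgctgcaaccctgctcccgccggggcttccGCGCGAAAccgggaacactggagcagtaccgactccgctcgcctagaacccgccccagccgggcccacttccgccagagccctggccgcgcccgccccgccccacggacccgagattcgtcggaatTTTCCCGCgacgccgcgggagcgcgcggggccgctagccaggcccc

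Many of the genes share their promoter region with a gene on the other strand. In the RefSeq table, 14 of 31 (45.2%) had the start of a gene that runs the other way within 1000 bases upstream, against 16.5% of all promoters and 24.4% of those of detected genes. Of these neighbours, 3 had no level in the files, and the pairs ranged from close to far apart in level. XRCC3 was at 28.7 ± 1.33 TPM and its neighbour ZFYVE21, 359 bases away, at 32.7 ± 0.988 TPM, and PALB2 was at 12.4 ± 0.876 TPM beside DCTN5 at 17.1 ± 0.244 TPM (156 bases). BRCA1 stood at 16.6 ± 0.728 TPM, and NBR1, which starts 82 bases away and encodes an autophagy receptor, at 154, 156 and 163 TPM. BRCA2 stood at 12.2 ± 0.927 TPM, whereas ZAR1L, 145 bases away, was at 0.0317 TPM in replicate 1 and listed at 0 in replicates 2 and 3. EME1 was at 23.5 TPM beside the mitochondrial ribosomal gene MRPL27 at 102 ± 2.29 TPM (45 bases), and GEN1 at 10.6 TPM beside the chromosome maintenance gene SMC6 at 39.7 ± 3.11 TPM (59 bases). ATM was the higher of its pair, at 23.3 ± 1.64 TPM against 16.6 ± 0.391 TPM for the histone gene activator NPAT (429 bases).

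Among the 6 genes of end recognition and resection, RBBP8 (Entrez gene 5932), which encodes the resection factor CtIP, was the highest. It stood at 69.5, 65.4 and 78.1 TPM in replicates 1, 2 and 3, highest in replicate 3. The MRN complex holds and trims the ends. Its damage-signalling subunit NBN (4683) was at 35.2, 34.7 and 37.6 TPM and its ATPase RAD50 (10111) at 24.1, 22.6 and 27.1 TPM. The nuclease MRE11A (4361) was at 19.4, 18.8 and 21.4 TPM. RAD50 and NBN thus differed by more than their spread, with a RAD50 to NBN ratio of 0.686 ± 0.0341. The exonuclease EXO1 was at 32.2 ± 0.362 TPM and the helicase and nuclease DNA2 at 22.1 ± 1.82 TPM. With the length of the shortest EXO1 record with 90% of the counts (2899 bases), EXO1 was at 38.6 ± 0.433 TPM.

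The place of MRE11A depended on which transcript length was used. Its largest record is 6897 bases long in GENCODE 29, but a record of 2588 bases held 97.9%, 98.5% and 98.0% as many counts. The bases outside the short record carried 17.9, 15.4 and 15.2 counts per kb, against 1449.8, 1769 and 1262 counts per kb over the short record. With the length of the short record MRE11A was at 53.0 ± 3.55 TPM, above NBN and RAD50, and the RAD50 to MRE11A ratio turned from 1.24 ± 0.0340 to 0.464 ± 0.0127. The files do not give the lengths of the records that the authors counted.

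The kinases that signal the damage were ATM (472), activated at double-strand breaks, and ATR (545), activated at RPA-coated single strands. ATM was at 22.1, 22.7 and 25.2 TPM and ATR at 16.7, 16.3 and 16.4 TPM. ATM lay above ATR in 3 of 3 libraries, with a ratio of 1.42 ± 0.110, which was 2.57 with the median length of each gene's transcripts.

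The genes of RPA, the heterotrimer that coats single-stranded DNA in replication and repair, included the highest levels of the set. RPA1 (6117), the large DNA-binding subunit, was at 154, 150.5 and 151 TPM. RPA2 (6118), the subunit phosphorylated after damage, was at 108, 108 and 104 TPM, and the small subunit RPA3 (6119) at 45.8, 45.5 and 46.9 TPM. The subunits were therefore not at equal transcript levels: RPA1 exceeded RPA2 by 1.42 ± 0.0318 times and RPA3 by 3.29 ± 0.0720 times, in the same order in 3 of 3 libraries. The length of RPA1 came from its longest GENCODE transcript, since its record had no matched one. With the median length of each gene's transcripts the ratios of RPA1 to RPA2 and to RPA3 were 6.50 and 8.91.

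The genes of the BRCA complex and of strand loading were lower, with a median of 12.3 TPM over 6 genes. The BRCA1-associated helicase BRIP1 (83990) led them at 22.5, 22.9 and 25.9 TPM. BRCA1 (672) was at 15.7, 16.9 and 17.1 TPM. BARD1 (580), its partner in the ubiquitin ligase, was at 9.69, 9.48 and 10.1 TPM. BRCA1 exceeded BARD1 by 1.70 ± 0.0808 times. BRCA2, a mediator of strand exchange, and PALB2, which tethers BRCA2 to BRCA1, were close to each other. BRCA2 (675) was at 11.9, 11.6 and 13.3 TPM and PALB2 (79728) at 12.8, 11.4 and 13.0 TPM, so that their ranges overlapped, with a ratio of 0.990 ± 0.0543. RAD52, the annealing factor of a second loading route, was lowest at 6.28, 5.62 and 6.92 TPM.

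Among the strand exchange factors, RAD51AP1 (10635), which stimulates strand pairing, was at 45.9, 46.2 and 53.0 TPM. XRCC3, RAD51C and XRCC2, which act in complexes during strand exchange, were unequal: XRCC3 (7517) stood at 29.1, 29.7 and 27.2 TPM, RAD51C (5889) at 10.3, 10.8 and 10.4 TPM and XRCC2 (7516) lowest at 8.30, 7.97 and 8.74 TPM. XRCC3 exceeded RAD51C, its partner, by 2.73 ± 0.0980 times. Of the motor proteins of strand exchange, RAD54L (8438) was at 27.2, 25.8 and 25.7 TPM and RAD54B (25788) at 11.8, 11.5 and 12.1 TPM, a ratio of 2.22 ± 0.0974. With the length of the shortest RAD54L record with 90% of the counts (2549 bases), the ratio was 2.71 ± 0.119.

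The genes that undo or cut the joined molecules followed. MUS81 (80198), the catalytic subunit of a structure-specific nuclease, was at 32.9, 33.3 and 30.4 TPM, and its partner EME1 (146956) at 22.2, 23.1 and 25.3 TPM. Their ratio was 1.48, 1.44 and 1.20 in replicates 1, 2 and 3, so MUS81 was the higher in each but by less in replicate 3, and the mean of 1.38 became 2.25 with the median transcript length. The dissolving helicase BLM was at 11.3 ± 0.706 TPM, and the resolvase GEN1 (348654) was lowest at 9.84, 10.3 and 11.6 TPM.

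Genes of the Fanconi core complex differed by more than an order of magnitude among themselves. FANCG (2189), a scaffold subunit, was at 63.2, 62.1 and 59.3 TPM, and FANCA (2175), its direct partner, at 56.3, 54.2 and 55.8 TPM. FANCL (55120), the catalytic ligase subunit, was at 39.98, 42.5 and 47.0 TPM. FANCE (2178), which contacts FANCD2, was at 31.5, 30.3 and 30.6 TPM. These 4 lay above 23.2 TPM, the median of detected genes, in each library. FANCC (2176) was at 15.7, 14.8 and 13.1 TPM, and FANCM (57697), the translocase that brings the complex to DNA, at 8.66, 9.32 and 10.1 TPM. FANCB (2187), which pairs with FANCL, was at 6.48, 5.45 and 6.42 TPM. FANCF (2188), the adaptor that links subunits, was lowest at 3.73, 3.59 and 4.39 TPM on 315, 379 and 293 counts. FANCG exceeded FANCF by 15.9 ± 2.09 times and FANCB by 10.1 ± 1.13 times, and with the median length of each gene's transcripts these ratios were 67.2 and 41.1. The order of FANCA and FANCG also turned with the length, from a FANCA to FANCG ratio of 0.902 ± 0.0357 to 1.60.

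The targets of the core complex were higher than most of its subunits. FANCI (55215) was at 88.8, 85.6 and 89.2 TPM and FANCD2 (2177) at 42.2, 39.3 and 44.4 TPM. Although the proteins form a pair, FANCI transcripts exceeded those of FANCD2 by 2.10, 2.18 and 2.01 times in replicates 1, 2 and 3. With the median length of each gene's transcripts the mean ratio was 1.47. GENCODE lists a pseudogene of FANCD2, as it does for MRE11A, RAD51AP1, RBBP8 and RPA2, and how reads with several hits were handled is not given in the sources used here, so these levels are uncertain to that extent.

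Some members overlap a gene on the opposite strand, and the strand setting of the counting is not given in the sources used here. The overlap with exons of KLC1 (158 TPM) covered 34.0% of the XRCC3 record. That of FANCA with ZNF276 (22.5 TPM) covered 27.4%, that of FANCL with VRK2 (46.4 TPM) 26.6%, that of RAD54L with LRRC41 (47.4 TPM) 25.9% and that of EME1 with LRRC59 (238 TPM) 22.0%. Smaller overlaps included that of FANCI with POLG (44.5 TPM), which covered 9.66%. The overlap of MUS81 with CFL1 covered 6.94%, but CFL1 was at 1696 TPM, so the MUS81 level and its ratio to EME1 carry this limit too. Without strand, reads from these stretches cannot be told apart. On the same strand, FSBP exons overlapped 79.2% of the RAD54B record, and FSBP was at 3.50, 5.82 and 5.42 TPM in replicates 1, 2 and 3. Exons of the gene model AC116366.3, for which no level was taken from the files, overlapped 90.6% of the RAD50 record.

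The files count each transcript record apart, and 17 of the 37 genes had more than 1 record, with 62 records in all. In most genes the records held nearly equal counts, and 7 records of 5 genes held under 85% of the count of the largest. In BRCA1 the shortest record, which lacks most of the large central exon, held 65.4% (95% Wilson interval 63.8 to 67.0), 66.0% (64.5 to 67.3) and 62.9% (61.1 to 64.7) as many counts as the largest record. Set against the shortest record that held over 90% of the counts, 3407 bases were in that longer record alone, 3309 of them in 1 unbroken stretch. That stretch was read at lower density: the reads outside the short record came to 317, 417 and 289 counts per kb, and the short record to 900.4, 1219.8 and 743 counts per kb, 2.78 ± 0.186 times as many. Intervals cover counting error only and treat each count as a separate molecule.

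The count of a shorter record as a percentage of the largest spread most over the libraries in RAD51C, FANCC and the RAD54B record of 1879 bases, with SDs of 6.88, 4.88 and 4.72 percentage points. In FANCC the record of 2387 bases, which has 834 bases of its own, was at 16.5 CPM (95% Poisson interval 15.5 to 17.5), 16.7 CPM (15.8 to 17.6) and 12.1 CPM (11.2 to 13.1) in replicates 1, 2 and 3. The largest FANCC record was at 30.2, 28.7 and 24.9 CPM. The short record was thus lowest in replicate 3, where it held 48.6% as many counts as the largest, against 54.7% and 58.3%. RAD51C went the other way: its record of 567 bases was at 4.9997 CPM (4.48 to 5.56), 5.49 CPM (4.999 to 6.01) and 6.36 CPM (5.70 to 7.06), while its largest record was at 11.2, 11.9 and 11.1 CPM. The short RAD51C record held 44.7%, 46.3% and 57.3% as many counts as the largest. In RAD54B the record of 1879 bases has 1497 bases of its own. It was at 4.27 CPM (3.79 to 4.79), 5.18 CPM (4.71 to 5.69) and 5.75 CPM (5.13 to 6.42), lowest in replicate 1. The largest RAD54B record was at 15.1, 14.9 and 15.4 CPM. The record of 1879 bases held 28.3%, 34.8% and 37.4% as many counts as the largest. FSBP, on the same strand, was lowest in replicate 1 too, and its part in these counts was not tested. RAD51C, FANCC and RAD54B were singled out after the values of all records were seen, and no test was made of the records. The other short record of RAD54B held 83.0%, 84.3% and 79.5%, and that of FANCA 15.8%, 17.1% and 17.2%.

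**Figure D2:**
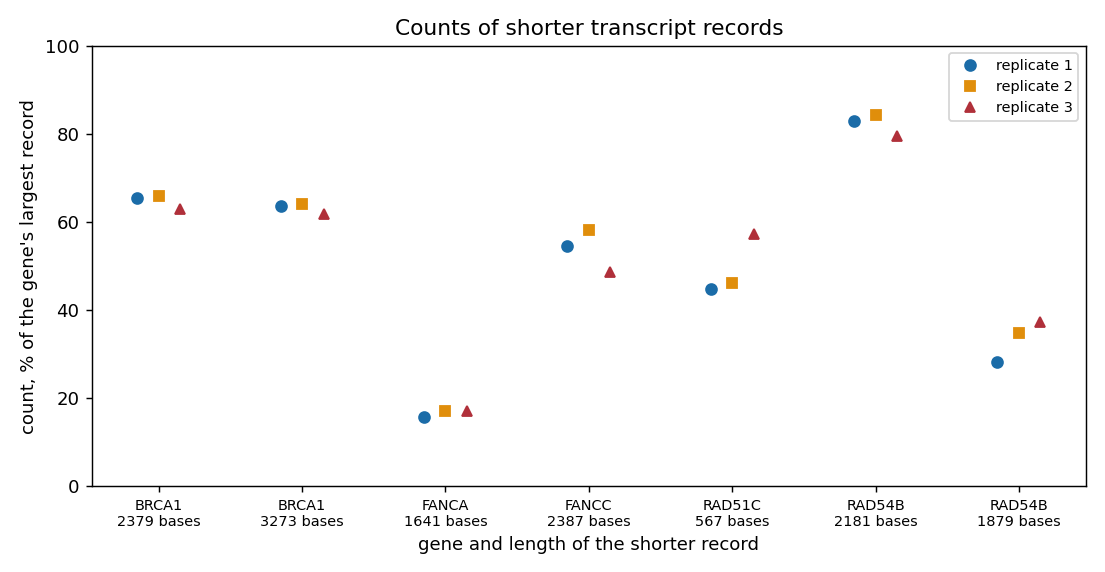
Count of each shorter transcript record as a percentage of the count of the gene's largest record, with 1 point per library, for the 7 records under 85%. The BRCA1 and FANCA points lie close together over the libraries, whereas replicate 3 lies lowest for FANCC (48.6%) and highest for the RAD51C record (57.3%) and the RAD54B record of 1879 bases (37.4%).

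Differences between the libraries of these cultures were small. On the log2(CPM + 0.5) scale with TMM scaling, the widest ratio of the highest to the lowest library among the 37 genes was 1.21, in FANCC. Variation was tested on the counts, as the deviance of an edgeR fit with no term for group and no dispersion, that is, against counting noise alone. Each count was treated as independent, which mates of a pair counted apart would not be, as taken up below. At an adjusted p under 0.05, 25 of the 37 genes (67.6%) varied, and over all 14432 genes tested the share was 53.0%. A call against counting noise depends on the number of counts, and these shares were not matched for it. Of the 25, 17 were highest in replicate 3 (45.9% of the 37, against 21.7% of all genes) and 6 were lowest there (16.2%, against 21.3%). The strongest were RBBP8 (edgeR deviance, adjusted p = 8.49e-17), RAD50 (adjusted p = 2.46e-15) and ATM (adjusted p = 5.52e-12), all highest in replicate 3.

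In units of log2(CPM + 0.5) minus the gene's mean, the median over the 37 genes was -0.01, -0.02 and 0.05 in replicates 1, 2 and 3, and 26 of 37 lay above their mean in replicate 3. Over all genes tested the medians were within 0.01 of 0, and 50.6% lay above their mean in replicate 3. The 6 genes of end recognition and resection had a median of 0.10 in replicate 3, with 5 varying and those 5 highest there. Over all genes tested, 21.7% varied and were highest in replicate 3. In the group of BRCA complex and strand loading the median was 0.08 and 4 of 6 were varying and highest there. RPA went the other way, with a median of -0.02 and RPA1 and RPA2 varying and lowest in replicate 3, as 21.3% of all genes were. Among the Fanconi core genes 5 of 8 varied, where 53.0% of all genes did. FANCL and FANCM were highest in replicate 3 (21.7% of all genes), FANCC and FANCG lowest there (21.3%), and FANCB lowest in replicate 2.

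**Figure D3:**
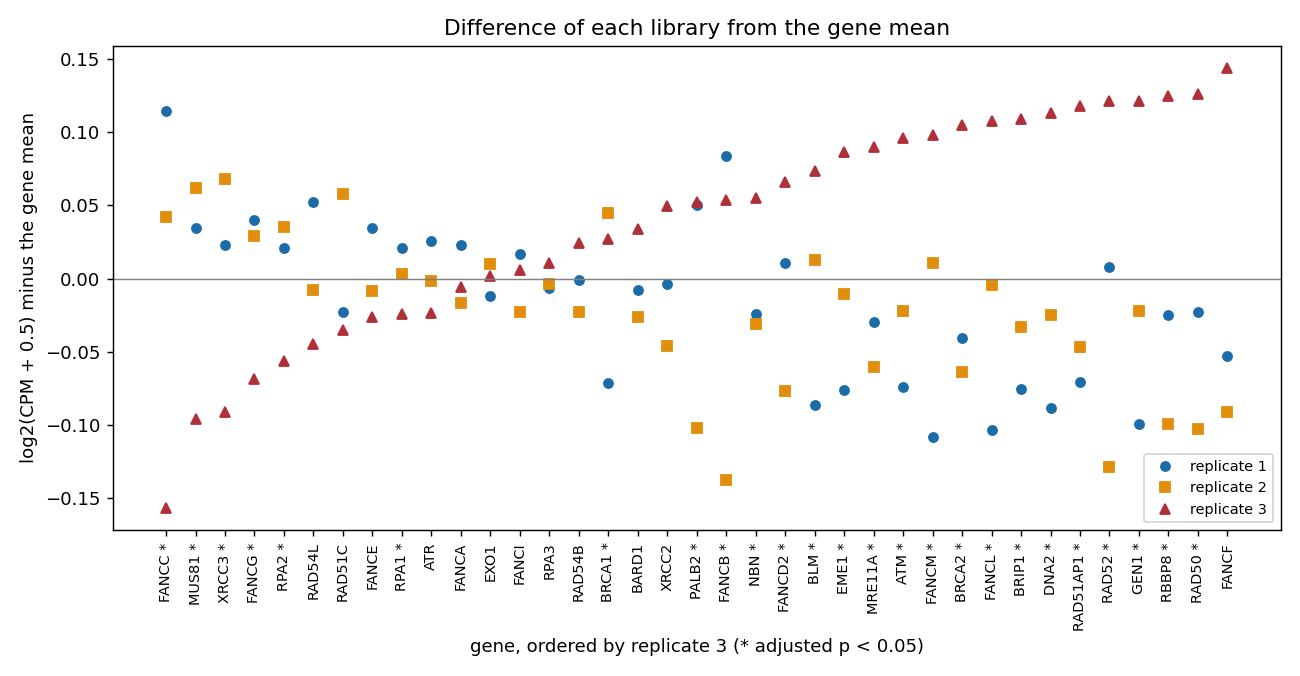
Difference of each library from the gene's mean, in log2(CPM + 0.5), for the 37 genes ordered by replicate 3; a star marks an adjusted p under 0.05. Replicate 3 runs from -0.16 in FANCC to 0.14 in FANCF, and 26 of its 37 points lie above 0, against 50.6% of all genes tested.

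Base composition ran alongside these differences. The transcripts of the 37 genes had a median GC content of 42.2%, against 49.3% over the genes tested, and ranged from 36.0% (RAD51AP1) to 62.9% (XRCC3). Of the 18 genes under 42% GC, 15 were highest in replicate 3, with a median there of 0.10, and all 3156 tested genes in that range had a median of 0.06. Of the 8 genes at 50% GC or more, 6 were lowest in replicate 3, with a median of -0.06 against -0.05 over 6821 genes. The bounds of these classes were chosen after the values were seen. The share of all genes highest or lowest in replicate 3 was not taken by class, so these counts have no background beside them. Across the 37 genes, Spearman's rho between GC content and the value in replicate 3 was -0.61, and across 14263 genes it was -0.54; genes of a library share its depth and preparation, and these are descriptions only.

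With a smooth trend on GC content and transcript length taken out of each library, the median of the 37 genes in replicate 3 was 0.011, and 13 of 37 varied (35.1%, against 38.3% of all genes). The medians in replicates 1 and 2 were then 0.01 and -0.01. Spearman's rho between GC content and the value in replicate 3 was then -0.24 across the 37 genes and -0.04 across 14263 genes. RBBP8 (adjusted p = 1.49e-08), RAD50 (adjusted p = 1.50e-06) and FANCC (adjusted p = 4.19e-06) had the smallest p of the 37 in that edgeR fit. In it RBBP8 and RAD50 were lowest in replicate 2 (-0.09 and -0.07) and highest in replicate 3 (0.07 and 0.08), and FANCC was lowest in replicate 3 (-0.15). NBN, MRE11A, DNA2, BRCA2, BRIP1 and RAD52 no longer varied in that edgeR fit (adjusted p from 0.0513 in RAD52 to 0.521 in NBN). Nor did RAD51AP1, XRCC3, MUS81, BLM, GEN1, FANCG, FANCL and FANCM (adjusted p from 0.0737 in FANCM to 0.588 in FANCG). RPA1 and RPA2 still varied and were lowest in replicate 3. ATR and FANCI had not varied before the trend was removed (edgeR adjusted p = 0.439 and 0.113). They did so after it (adjusted p = 0.0018 and 0.00645), lowest in replicate 3 at -0.08 and -0.03. BRCA1 varied in both fits (adjusted p = 0.0033 and 0.00274) and was lowest in replicate 1.

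**Figure D4:**
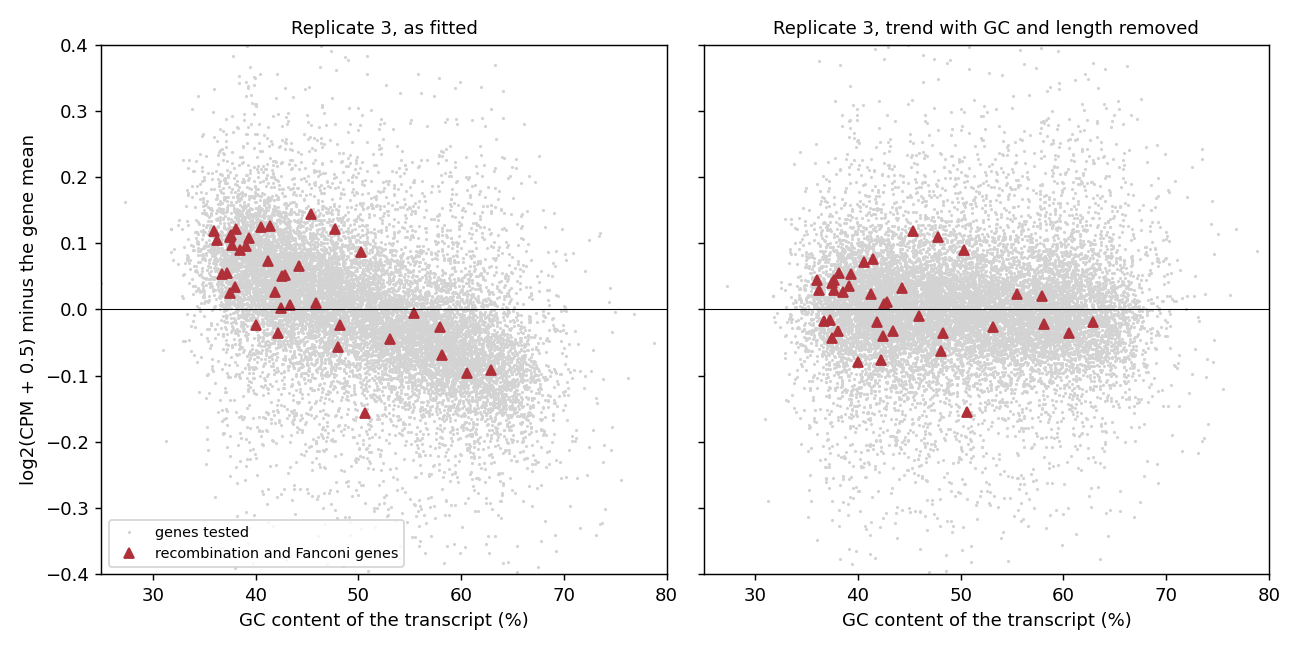
Difference of replicate 3 from the gene's mean, in log2(CPM + 0.5), against the GC content of the transcript in %, for the genes tested (grey) and the 37 genes (red), before (left) and after (right) the trend with GC content and length was removed; genes beyond the axes are not drawn. On the left the red points lie within the grey cloud and run from mostly above to mostly below 0 as GC rises (rho -0.61). On the right their median is 0.011 and rho is -0.24.

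How many genes passed depended on what was allowed for. More genes had exactly 2 counts (712, 637 and 580) than 1 count (485, 401 and 379), as counting each mate of a read pair would give. With each deviance divided by 2 to stand for pairs counted once, 13 of 37 genes varied (35.1%, against 28.5% of all genes), 12 of them highest in replicate 3 (12.2% of all genes), and with the trend removed as well 3 of 37 did (8.11%, against 13.0%), namely RBBP8, RAD50 and FANCC. With 0.05 allowed as the coefficient of variation among cultures, 0 of 37 passed in edgeR (1.12% of all genes). At an unadjusted p under 0.05 in that fit it was 1 of 37, against 10.6% of all genes. Without replicate 1, 19 of 37 varied (37.8% of all genes), and without replicate 2, 21 of 37 (39.2%). Without replicate 3, 7 of 37 varied (18.9%, against 24.2%): FANCD2, BRCA1, RAD50, RBBP8, PALB2, FANCB and FANCM. Summed levels of the 9 markers of other cell types were 1.504, 2.02 and 2.39 TPM in replicates 1, 2 and 3, and their part in these differences was not tested.

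Other lists place these genes in the wider repair network. Of 46 other recombination and Fanconi genes, 45 were in the files and all 45 were detected. Their median log2(TPM + 1) lay 0.27 ± 0.03 above that of detected genes, and 26 of 45 varied, where 53.0% of all genes did. The highest were BABAM1 (282 ± 6.69 TPM), a subunit of the BRCA1-A complex, and UBE2T (159 ± 2.20 TPM), the ubiquitin-conjugating enzyme that works with FANCL. The lowest was RAD51D (3.21 ± 0.340 TPM), whose transcript was taken as 9988 bases. In the list of 15 end joining and single-strand break genes, 14 had a length and were detected, the median lay 0.09 ± 0.00278 above, and 11 of 15 varied, again against 53.0%. The Ku subunits XRCC6 and XRCC5, which bind broken ends for direct joining, led it at 541 ± 9.15 and 416 ± 11.8 TPM, each above all 37 genes described here. POLQ, the polymerase of a further joining route, was lowest at 6.02 ± 0.635 TPM.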

How the data were processed

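The authors deposited raw counts per RefSeq transcript record for each library, whole numbers without normalization. Cufflinks, TopHat2 and FastQC are listed as tools, and hg19 as the build, per the submitters' processing notes; the labels' protocols give TruSeq RNA libraries read as pairs of 100 bp. The counting tool, versions and strand setting are not given in the sources used here. Records (42269, with 39005 identifiers) were summed over copies of an identifier, and a gene's count was its record with the largest total. Gene names were lacking for 6937 records; RefSeq accessions gave names to 6318, and 619 (0.952%, 0.959% and 0.944% of the record totals) were left out. For 28 genes the symbol had become a date number and was restored from the Entrez identifier. Lengths and GC content came from GENCODE 29 transcripts, by accession for 36 of the 37 genes and found for 98.5% of genes with a count.

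Libraries were scaled by TMM in edgeR 4.0.16 (R 4.3.3) and genes filtered with filterByExpr without groups. To test variation, edgeR was fitted with an intercept alone and dispersion 0, and each gene's deviance was compared with a chi-square of 2 degrees of freedom, adjusted by Benjamini-Hochberg over all genes tested and called at 0.05; the procedure was tested on simulated data. The p-values measure the spread between these 3 libraries beyond the counting noise of independent counts. If each mate of a read pair was counted, that noise is understated and the p-values without the division by 2 are too small. Each culture is known only through its own library, so culture and library preparation cannot be told apart. Trends with GC content and length were smoothed with mgcv 1.9.3. DESeq2 1.42.0 gave alternative size factors. Tables and plots used Python 3.11.15, numpy 2.4.6, pandas 2.3.3, scipy 1.17.1 and matplotlib 3.10.9. The members and lists were chosen with earlier results of these data known. By the rule for named genes, all 3 libraries' values are given for the highest and lowest gene of each role, for partners in complexes and for the 6 varying genes of widest range, and each further list is shown by its 2 highest and its lowest gene.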

Additional observations from a re-analysis of the deposited data

How the results depend on the processing

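The number of varying genes was 7656 of 14432. It fell to 4119 with deviances divided by 2, to 161 with a coefficient of variation of 0.05 allowed for, and to 1873 with deviances divided by 2 and the trend with GC content and length removed, an alternative chosen after seeing the data. For the 37 genes, 25 became 13, 0 and 3 in the same order, and 13 with the trend removed alone. Leaving out 1 library gave 3571 to 5663 genes, 7 to 21 of the 37 genes, 10 to 19 of the other recombination genes and 5 to 9 of the end joining genes, and each lowest number came without replicate 3. The median of the 37 genes in replicate 3 was 0.05, and 0.011 with the trend removed. DESeq2 size factors, a Pearson chi-square, no filter and sums over records kept the counts of varying genes within 1.5 times.

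The list level of 0.01 became 0.81 with the median length of a gene's transcripts, 0.30 without length correction and 0.69 against genes with any count. Sums over records moved the level of the other recombination genes from 0.27 to 0.61 and that of the end joining genes from 0.09 to 1.05. Single levels moved by over 1.5 times in 28 of 37 genes with the median length, in 25 with sums over records and, with the length of the shortest record holding 90% of the counts (chosen after seeing the data), in MRE11A alone. Sums over records raise the total to which TPM is scaled. Genes with 1 record, such as RAD50 (24.6 to 12.8 TPM) and NBN (35.8 to 18.6 TPM), therefore fell with their own counts unchanged. TMM scaling moved none of the 37 levels beyond its SD. No paired analysis was possible because there is 1 group. Counting error limits FANCF, FANCB and RAD52 most, which have the fewest counts.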
